A study of Mus musculus with 12 samples.

Results

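The 10 genes described here encode the actins, actin-binding proteins and myosin light chain of smooth muscle and of stress fibres, together with the transcription factor that binds many of their promoters. They were chosen by symbol (Acta2, Actg2, Tagln, Cnn1, Cnn2, Myl9, Tpm1, Tpm2, Cald1 and Srf) from the 23420 genes listed in the count files, and all 10 were found and passed the filter on low counts. RNA from mouse cells was sequenced in bulk as 12 libraries, 3 in each of 4 groups that follow the reprogramming of fibroblasts into pluripotent cells. The MEF group holds mouse embryonic fibroblasts, Stage1 cells were taken at day 6, Stage2 cells after 4 further days, and the iPSC group holds established induced pluripotent stem cells. All 4 groups carry the same strain label, a mixed C57BL/6 and 129 background. Per the series text, cells of every group but MEF were sorted for Oct4-GFP, a fluorescent reporter of the pluripotency gene Pou5f1, so the difference between MEF and the other groups also contains the sort.

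Smooth muscle contracts when phosphorylated myosin light chains let myosin pull on actin filaments, and calponin, caldesmon and tropomyosin, which lie along those filaments, tune how strongly it does so. Cultured fibroblasts assemble related bundles, the stress fibres, and fibroblasts with much alpha smooth muscle actin are called myofibroblasts. The serum response factor encoded by Srf binds a motif called the CArG box (CC, then 6 bases of A or T, then GG) in front of many contractile genes. Its cofactors of the Mkl family enter the nucleus when free actin monomers are used up.

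Titles and stage entries of the labels disagree. For 12 of 12 libraries the stage entered among the characteristics differs from the title: it reads MEF where the title reads Stage1, Stage 1 where it reads Stage2, Stage 2 where it reads iPSC, and iPSCs where it reads MEF. Groups were taken from the titles, which carry the replicate number. Summed over 12 fibroblast markers, the 3 libraries titled MEF reached 18895 to 24737 CPM (counts per 1e+06 gene counts, scaled between libraries), against 24.3 to 166 CPM in the other 9 libraries. Summed over 8 pluripotency markers, the libraries titled MEF held 4.38 to 6.15 CPM and the others 2483 to 7038 CPM. The titles of MEF therefore match the markers, while the order of the other 3 groups rests on the titles alone. Gene counts numbered 8916223 to 19011944 per library, so that 3 counts, the floor used for a gene without reads, correspond to 0.158 to 0.336 CPM and cover counting error only. No label says that replicates came from separate cultures or animals, so p-values measure only the spread between these libraries.

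Of the 8 genes with a RefSeq promoter entry (build GRCm38.p6) 3 held an exact CArG box in the 250 bases before the annotated start, against 1.47% of 32851 promoters searched the same way on both strands. These sites are shown because they are the letters that Srf, itself among the 10 genes, recognises. Each is printed on the gene's own strand with 10 bases on either side, and the capitals mark the box.
Srf upstream box: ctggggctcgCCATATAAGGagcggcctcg
Srf downstream box: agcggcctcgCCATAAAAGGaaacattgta
Cnn2: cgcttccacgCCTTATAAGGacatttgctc
Myl9: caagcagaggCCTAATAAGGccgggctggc
Acta2 upstream near match: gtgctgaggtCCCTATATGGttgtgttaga
Acta2 downstream near match: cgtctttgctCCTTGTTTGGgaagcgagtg
The Srf boxes lie 82 to 73 and 62 to 53 bases before the start (printed windows chr17:46556225-46556254 and chr17:46556205-46556234, minus strand). The Cnn2 box lies 56 to 47 bases before the start (chr10:79988534-79988563, plus strand) and the Myl9 box 161 to 152 bases before it (chr2:156775293-156775322, plus strand). Acta2 held no exact box in its window. With 1 mismatch allowed at any base, a setting chosen after the sequences were seen, it held the 2 near matches above, 84 to 75 and 34 to 25 bases before the start (chr19:34255438-34255467 and chr19:34255388-34255417, minus strand), which GENCODE M21 places inside its first exon. Under that looser rule 6 of the 8 genes and 18.6% of all promoters had a match. With 1 mismatch allowed only in the outer CC or GG, 5 of the 8 genes and 12.4% of promoters did. Cnn1 and Tpm2 had none under any of these rules, and Actg2 and Tagln are named only. A match is a description of the letters and not a measured binding site.

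In MEF the 10 genes made up 2.86% ± 0.23 of all gene counts (SD, n = 3). Compared per kilobase of exon, the order of their MEF levels began with Acta2 at 6091 CPM per kilobase and Tagln at 3336, and their library ranges did not overlap each other or the next gene's. Myl9 at 1265, Tpm1 at 1224, Actg2 at 985, Cald1 at 757 and Cnn2 at 579 CPM per kilobase formed a run in which each overlapped its neighbour. Cnn1 at 296 and Tpm2 at 286 CPM per kilobase overlapped each other and lay below that run, and Srf was last with 32.0. Of the markers of differentiated smooth muscle, Myh11, the smooth muscle myosin heavy chain, averaged 119 ± 42.8 CPM in MEF, and Myocd, the cofactor of Srf in smooth and cardiac muscle, 3.93 CPM.

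Both smooth muscle actins fell steeply between MEF and Stage1. Acta2 (chromosome 19, 34241090 to 34255590, minus strand), which encodes alpha smooth muscle actin, was counted at 13028, 11585 and 12576 CPM in the MEF libraries and at 1.80, 4.74 and 3.70 CPM at Stage1. The groups lie more than 3 orders of magnitude apart. Its log2 change was -11.85 ± 0.34 (SE), with an edgeR adjusted p of 1.01e-14, and 123 reads in all stood behind the Stage1 level. Actg2 (chromosome 6, 83512905 to 83536265, minus strand), which encodes the gamma actin of visceral smooth muscle, was counted at 1465, 1421 and 1150.3 CPM in MEF and at 0.138, 0.984 and 0.673 CPM at Stage1. The Stage1 values come from 21 reads in all, 2 of them in replicate 1. Its log2 change was -11.19 ± 0.37 (edgeR adjusted p = 3.87e-14).

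All 10 members were called lower at Stage1 than in MEF and 0 higher (0 also at an unadjusted p below 0.05 and with DESeq2), where 36.1% of the 14770 genes tested were called lower and 44.2% higher at an edgeR adjusted p below 0.05. In 10 of 10 the libraries of the groups did not overlap. The median log2 change of the members was -8.86, against 0.27 over all genes tested. Because these are bulk libraries, fewer cells of a type and less RNA per cell cannot be told apart. In the MEF libraries 9.21% ± 0.304 of reads fell outside genes, against 34.96 to 53.4% in the libraries of the other groups, and their part in these changes was not tested.

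**Figure D1:**
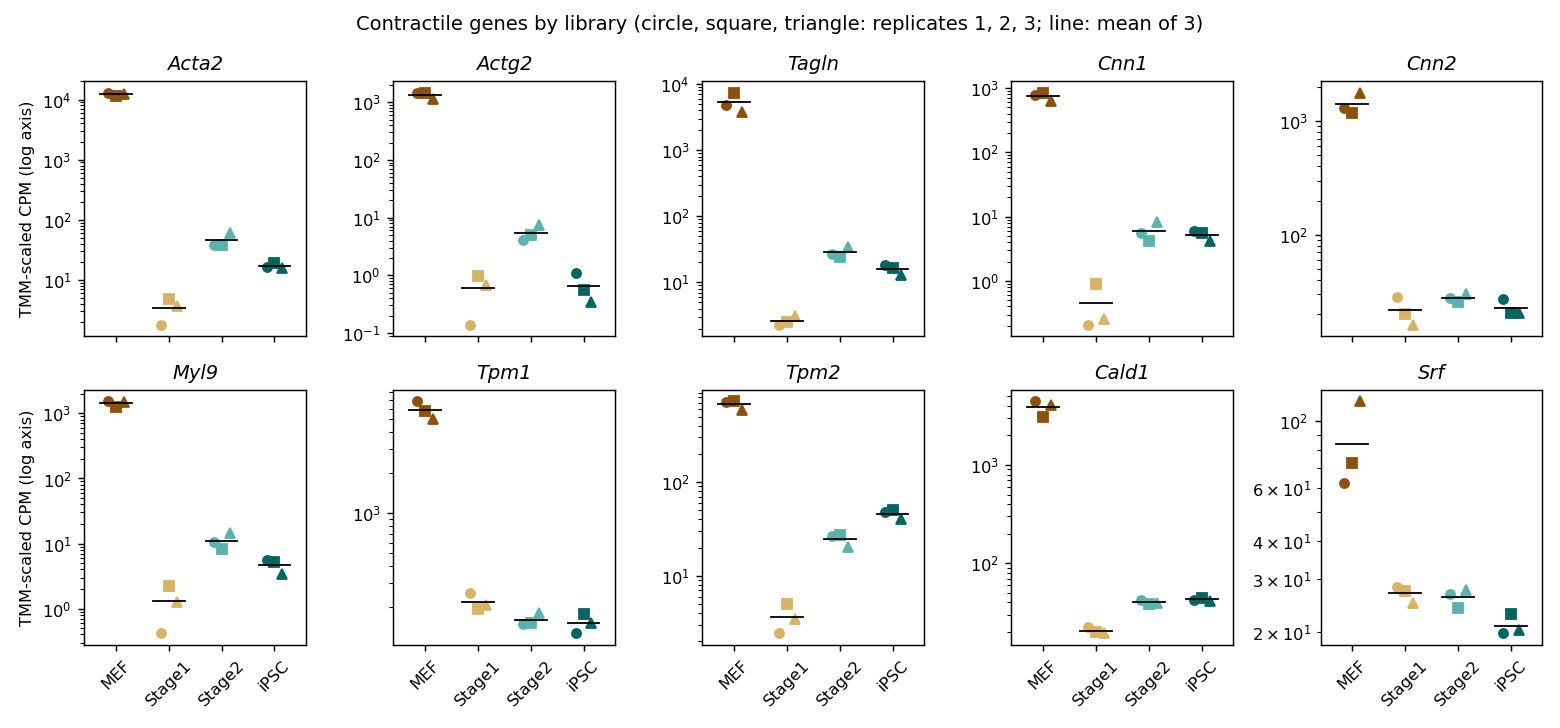
TMM-scaled CPM (log axis, a separate scale for each gene) of the 10 contractile genes in the 12 libraries, with circles, squares and triangles for replicates 1, 2 and 3 and a line at the mean of 3. Every gene is highest in MEF, and Acta2 goes from a mean of 12396 CPM to 3.42, 46.0 and 17.2 CPM.

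Among the actin-binding proteins, the falls were of very different size. Tagln (chromosome 9, 45929619 to 45936058, minus strand) encodes transgelin, a calponin-related protein that bundles actin. It was counted at 4784, 7407 and 3771 CPM in MEF, a wide spread, and at 2.28, 2.51 and 3.11 CPM at Stage1. Its log2 change was -10.98 ± 0.33 (edgeR adjusted p = 1.31e-14). Of the 50-base stretches of the Tagln transcripts, 43.8% also occur in Gm48529, an antisense gene of GENCODE M21 at the same place, and no source says whether counting used strand, so reads of Tagln and of its antisense partner cannot be told apart.

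Cnn1 (chromosome 9, 22099216 to 22109630, plus strand), the calponin of differentiated smooth muscle, was counted at 781, 845 and 616 CPM in MEF and at 0.207, 0.895 and 0.253 CPM at Stage1, with 16 Stage1 reads in all. Its log2 change was -10.73 ± 0.35 (edgeR adjusted p = 2.65e-14). Cnn2 (chromosome 10, 79988584 to 79996062, plus strand), the calponin also made outside muscle, was counted at 1312, 1172 and 1789 CPM in MEF and at 28.4, 20.05 and 16.1 CPM at Stage1. Neither calponin had overlapping libraries. The log2 change of Cnn2 was -6.04 ± 0.24 (edgeR adjusted p = 2.11e-13), so 1.51% of its MEF level was left at Stage1, against 0.0604% for Cnn1.

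Cald1 (chromosome 6, 34598500 to 34775473, plus strand) encodes caldesmon, which holds myosin off the filament. It was counted at 4445, 3103 and 4061 CPM in MEF and at 22.7, 19.96 and 19.4 CPM at Stage1, a log2 change of -7.55 ± 0.19 (edgeR adjusted p = 3.09e-15). The tropomyosins Tpm1 and Tpm2 encode coiled coils that lie along actin. Tpm1 (chromosome 9, 67022590 to 67049406, minus strand) was counted at 6812, 5730.1 and 5009.7 CPM in MEF and at 251, 191 and 205 CPM at Stage1. Tpm2 (chromosome 4, 43514711 to 43523765, minus strand) was counted at 722, 728 and 589.7 CPM in MEF and at 2.42, 5.01 and 3.45 CPM at Stage1. The tropomyosins differed in what was left, 3.69% of the MEF level for Tpm1 and 0.533% for Tpm2. Their log2 changes were -4.76 ± 0.19 and -7.57 ± 0.24 (edgeR adjusted p = 2.47e-13 and 1.84e-14).

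Myl9 (chromosome 2, 156775420 to 156781658, plus strand) encodes the regulatory myosin light chain of smooth muscle. It was counted at 1536, 1242 and 1502 CPM in MEF and at 0.415, 2.24 and 1.26 CPM at Stage1, a log2 change of -10.15 ± 0.37 (edgeR adjusted p = 1.79e-13). Srf (chromosome 17, 46548329 to 46556175, minus strand) kept the largest share of its MEF level of the 10 genes. It was counted at 62.1, 72.5 and 116 CPM in MEF and at 28.2, 27.4 and 25 CPM at Stage1, a log2 change of -1.64 ± 0.20 (edgeR adjusted p = 5.33e-07). The lowest MEF library of Srf was still above the highest Stage1 library, and 32.1% of its MEF mean was left, against 0.0275% for Acta2.

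What remained at Stage1 was mostly Tpm1. It held 16.1 to 19.5% of the summed CPM of the 10 genes in the MEF libraries and 69.5 to 74.3% in the Stage1 libraries. Per kilobase, Tpm1 led at Stage1 with 45.1 CPM, ahead of Srf with 10.3 and Cnn2 with 8.75, which overlapped each other, and of Cald1 with 4.04. Acta2, Tagln, Tpm2, Myl9, Actg2 and Cnn1 followed with 1.68 down to 0.179 CPM per kilobase, and neighbours in that order overlapped.

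Between Stage1 and Stage2, 7 members were called higher, where 20.6% of all genes tested were, and 1 was called lower, where 19.8% were. Their median log2 change was 2.96, against 0.02 over all genes tested. In every sorted group, however, the means of 9 of the 10 members stayed below 7% of their MEF means. Acta2 was counted at 37.9, 38.7 and 61.5 CPM at Stage2, all above Stage1, a log2 rise of 3.78 ± 0.27 (edgeR adjusted p = 1.53e-08). This is 0.371% of its MEF mean. Actg2 was counted at 4.01, 5.01 and 7.50 CPM at Stage2, a log2 rise of 3.29 ± 0.40 (edgeR adjusted p = 7.01e-06).

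The other risers at Stage2 were transgelin, the smooth muscle calponin, the light chain, Tpm2 and caldesmon, and none of them overlapped Stage1. Tagln was counted at 26.7, 24.5 and 34.2 CPM, a log2 rise of 3.44 ± 0.27 (edgeR adjusted p = 4.52e-08). Cnn1 was counted at 5.47, 4.23 and 8.21 CPM, a log2 rise of 3.78 ± 0.39 (edgeR adjusted p = 1.15e-06). Myl9 was counted at 10.7, 8.11 and 14.6 CPM, a log2 rise of 3.15 ± 0.35 (edgeR adjusted p = 3.37e-06). The libraries of replicate 3 were the highest for all 3 of these genes and for both actins. Tpm2 was counted at 26.5, 26.9 and 20.4 CPM, a log2 rise of 2.78 ± 0.21 (edgeR adjusted p = 3.90e-08). Cald1 was counted at 42.3, 38.4 and 40.0 CPM, a smaller log2 rise of 0.96 ± 0.15 (edgeR adjusted p = 7.99e-05).

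Tpm1, Cnn2 and Srf did not rise with them. Tpm1 was counted at 147, 150.2 and 178 CPM at Stage2, below the 3 Stage1 libraries, a log2 change of -0.45 ± 0.16 (edgeR adjusted p = 0.0381). That call is marginal: it was lost with a replicate left out at Stage1 (replicate 1, adjusted p = 0.15, or replicate 3, 0.0604), at Stage2 (replicate 1, 0.124, or replicate 2, 0.117) or in iPSC (replicate 3, 0.0507), all by edgeR, and with DESeq2 (0.0736). Cnn2 was counted at 27.6, 25.5 and 30.2 CPM at Stage2, overlapping Stage1, with a log2 difference of 0.36 ± 0.20 (edgeR adjusted p = 0.163). Its difference passed the threshold without Stage1 replicate 1 (0.61, edgeR adjusted p = 0.0273). Srf was counted at 26.8, 23.9 and 27.6 CPM at Stage2, within 1 CPM of its Stage1 mean on average, with a log2 difference of -0.04 ± 0.20 (edgeR adjusted p = 0.884).

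**Figure D2:**
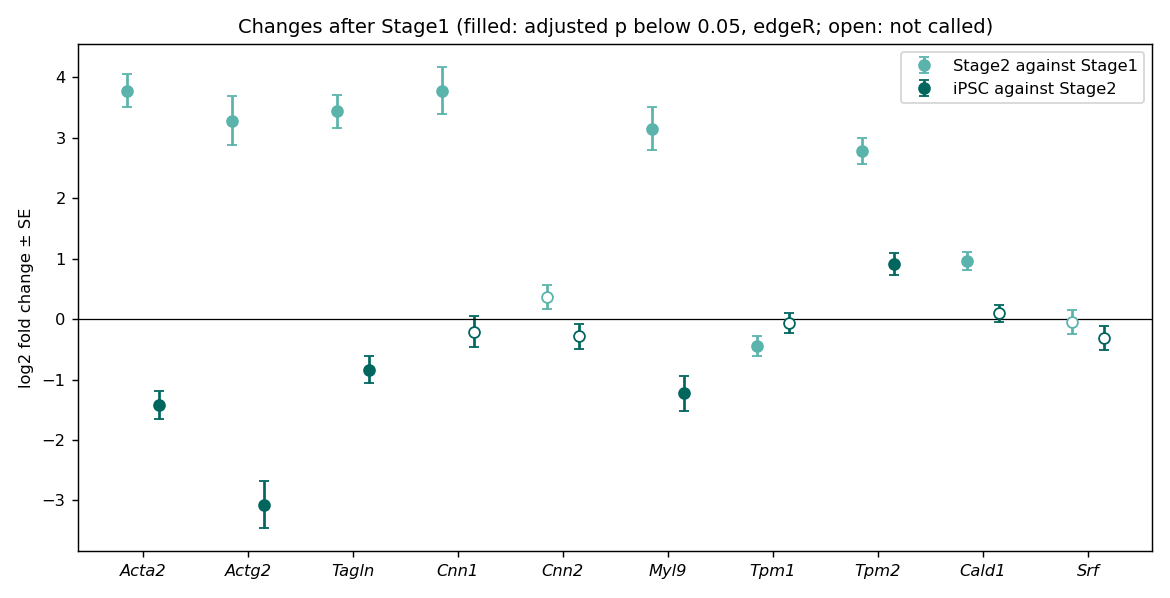
Log2 fold change ± SE of each of the 10 genes for Stage2 against Stage1 (light) and iPSC against Stage2 (dark), filled where the edgeR adjusted p is below 0.05. Between Stage1 and Stage2, 7 genes lie above 0 with filled symbols, from 0.96 for Cald1 to 3.78 for Acta2, and between Stage2 and iPSC Actg2 is lowest at -3.07 while Tpm2 is at 0.91.

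The comparison of iPSC with Stage2 shares the Stage2 libraries with the one before, so values are given side by side. Of the members, 4 were called lower in iPSC than at Stage2, where 8.87% of all genes tested were, and 1 was called higher, where 9.21% were. Their median log2 difference was -0.30, against 0.04 over all genes tested. Actg2 was counted at 1.09, 0.556 and 0.340 CPM in iPSC, a log2 change of -3.07 ± 0.38 (edgeR adjusted p = 9.71e-05), and 25 reads in all stood behind its iPSC level. Acta2 was counted at 16.7, 19.03 and 15.99 CPM in iPSC, a log2 change of -1.42 ± 0.23 (edgeR adjusted p = 7.08e-04). Both actins lay below every Stage2 library.

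Myl9 was counted at 5.54, 5.28 and 3.40 CPM in iPSC, a log2 change of -1.23 ± 0.29 (edgeR adjusted p = 0.00885). Tagln was counted at 18.3, 16.5 and 13.01 CPM, a log2 change of -0.84 ± 0.22 (edgeR adjusted p = 0.0164). Neither overlapped Stage2. Without Stage2 replicate 3 both calls were lost (Myl9 -0.95, edgeR adjusted p = 0.0646, and Tagln -0.66, 0.1), and that of Tagln was also lost without iPSC replicate 2 (0.0515) or 3 (0.0832), while both actins were called with each library left out. Tpm2 went the other way. It was counted at 47.5, 50.5 and 40.5 CPM in iPSC, all above Stage2, a log2 rise of 0.91 ± 0.18 (edgeR adjusted p = 0.00300), and reached 6.79% of its MEF mean.

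The remaining members were not called between Stage2 and iPSC. Cnn1 was counted at 5.88, 5.56 and 4.17 CPM in iPSC (log2 difference -0.21 ± 0.26), and Cald1 at 42.8, 44.9 and 41.2 CPM (0.10 ± 0.15). Tpm1 was counted at 126, 177 and 151 CPM in iPSC (-0.07 ± 0.16) and Cnn2 at 27.2, 20.6 and 20.5 CPM (-0.29 ± 0.20). For these 4 genes the libraries of the groups overlapped. Srf was counted at 19.7, 22.9 and 20.2 CPM in iPSC, below every Stage2 library, but its log2 difference of -0.31 ± 0.20 did not pass (edgeR adjusted p = 0.287). In a fit of the 6 libraries of these groups alone it passed (-0.37, edgeR adjusted p = 0.0411).

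The comparison of iPSC with Stage1 shares its libraries with the earlier ones. In it, iPSC had 6 members called higher, where 21.3% of all genes tested were, and 1 called lower, where 18.1% were. Tpm2 differed by 3.69 ± 0.22 on the log2 scale (edgeR adjusted p = 1.56e-09). Cnn1 differed by 3.57 ± 0.40 (edgeR adjusted p = 2.14e-06), Tagln by 2.60 ± 0.27 (9.49e-07) and Acta2 by 2.36 ± 0.27 (2.68e-06). Myl9 differed by 1.92 ± 0.38 (edgeR adjusted p = 7.08e-04) and Cald1 by 1.05 ± 0.15 (2.87e-05). Actg2 was the actin whose iPSC libraries overlapped Stage1, with a log2 difference of 0.22 ± 0.57 (edgeR adjusted p = 0.796). Tpm1 was called lower (-0.51 ± 0.16, edgeR adjusted p = 0.0198), a call lost without Stage1 replicate 1 (0.11) or iPSC replicate 1 (0.131) or 3 (0.0602). Srf was not called (-0.36 ± 0.20, edgeR adjusted p = 0.166), and passed without MEF replicate 3 (0.0401).

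Against MEF, the iPSC libraries were lower for 10 of 10 members, where 35.8% of all genes tested were called lower, and higher for 0, where 44.9% were. The log2 differences ran from -10.98 for Actg2 to -2.0 ± 0.20 for Srf, and the largest edgeR adjusted p among them was 5.11e-08, that of Srf. The median was -6.83, against 0.29 over all genes tested. The order of levels per kilobase had changed with it. In iPSC, Tpm1 led with 31.7 CPM per kilobase and Tpm2 was next with 19.4, without overlap. Tagln, Cnn2, Acta2, Cald1 and Srf followed between 10 and 8.01 CPM per kilobase and overlapped their neighbours. Myl9 at 4.20, Cnn1 at 2.06 and Actg2 at 0.485 were last and did not overlap. At Stage2, by contrast, Acta2 with 22.6 and Tagln with 17.8 CPM per kilobase had stood directly below Tpm1 with 33.2.

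Fibroblast markers moved in the direction of most members up to Stage2, and in median fell further than the members between Stage2 and iPSC. Of 12 such markers, 12 were called lower at Stage1 than in MEF, where 36.1% of all genes tested were. At Stage2, 9 were called higher than at Stage1 (3 not called), where 20.6% of all genes were. In iPSC, 9 were called lower and 1 higher than at Stage2, where 8.87% and 9.21% of all genes were. Their summed level was 24.3 to 30.8 CPM at Stage1, 112 to 166 CPM at Stage2 and 79.6 to 84.9 CPM in iPSC. In median, the markers stood at 0.226% of their MEF means at Stage1, at 0.931% at Stage2 and at 0.295% in iPSC, and the members at 0.312%, 0.919% and 0.903%. Stage1 replicate 1 had the lowest marker sum of its group and the lowest level of Acta2, Actg2, Tagln, Cnn1, Myl9 and Tpm2, but the highest level of Cnn2, Tpm1, Cald1 and Srf. Stage2 replicate 3 had the highest marker sum of its group, and also the highest level of both actins, Tagln, Cnn1, Cnn2, Myl9, Tpm1 and Srf. It had the lowest level of Tpm2, and its Cald1 level lay between those of the other Stage2 libraries. Of the defining markers, Lum had no count in the iPSC libraries and Twist2 none in 2 of them, while Col1a1 and Col1a2 were counted in all. Pdgfra and Pdgfrb lay higher in the iPSC libraries than in those of Stage2. Pdgfra stood at 12.2 to 13.8% of its MEF mean at Stage2 and at 22.0 to 29.6% in iPSC. Pdgfrb stood at 1.21 to 1.74% at Stage2 and at 2.13 to 2.95% in iPSC. The 7 members called higher at Stage2 were still called without Stage2 replicate 3 or Stage1 replicate 1. The part of fibroblast RNA in the levels of the members was not tested.

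**Figure D3:**
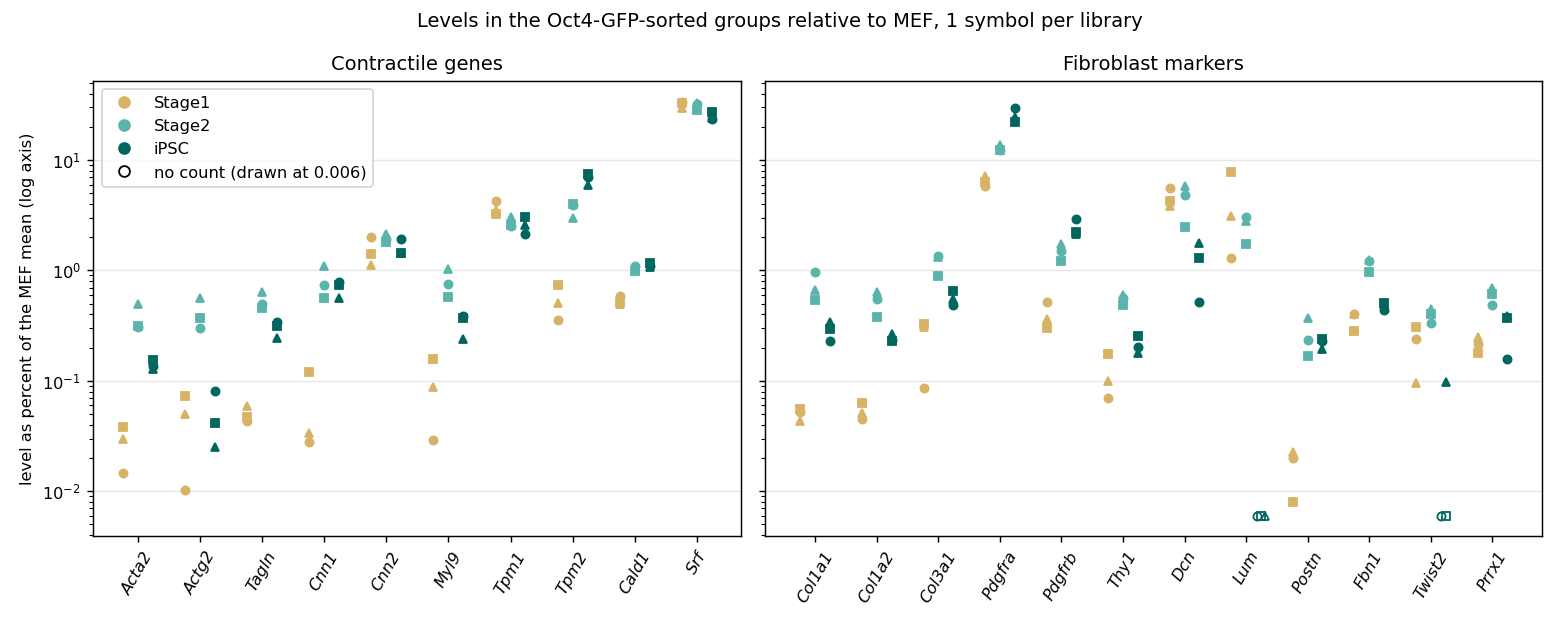
Level in each Oct4-GFP-sorted library as a percent of the MEF mean (log axis) for the 10 contractile genes (left) and the 12 fibroblast markers (right), with open symbols for libraries without a count. Among the contractile genes Srf stays between 23.6 and 33.7%, while Acta2 runs from 0.0145% in the lowest Stage1 library to 0.496% in the highest Stage2 library.

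Lists of markers of other cell types were described in the same way. A summed marker level does not by itself show that a cell type was present. Of 10 markers of differentiated smooth muscle and pericytes, 10 were called lower at Stage1 than in MEF. At Stage2, 5 were called higher than at Stage1 (5 not called). Of all genes tested, 36.1% were called lower and 44.2% higher at Stage1 than in MEF. At Stage2, 20.6% of all genes were called higher than at Stage1 and 19.8% lower. Des, the muscle intermediate filament gene desmin, averaged 122 CPM in MEF, 5.73 at Stage1, 16.6 at Stage2 and 33.7 in iPSC. Lmod1, which encodes an actin nucleator of smooth muscle, averaged 188 CPM in MEF, 0.832 at Stage1 and 2.99 at Stage2. Myh11 was counted at 2.25, 2.61 and 4.20 CPM at Stage2, which overlapped Stage1 and did not pass (edgeR adjusted p = 0.118). The skeletal and cardiac list, in which 7 of 15 genes were tested, summed to 141 to 194 CPM in MEF, mostly from Acta1 at 155 CPM. It summed to 34.4 to 43.3 CPM at Stage1. At Stage2 the list summed to 275 to 354 CPM, mostly from Ttn, the giant sarcomere protein gene, at 273 CPM. The sums are not scaled by gene length, and Ttn has 113588 exon bases against 1446 for Acta1. In iPSC the list summed to 102 to 115 CPM. Its determination factors Myod1, Myog and Myf5 stayed at or below 0.302 CPM in every group mean. Macrophage markers summed to 118 to 125 CPM in MEF, 8.92 to 14.4 CPM at Stage1, 24.9 to 30.5 CPM at Stage2 and 11.9 to 17.6 CPM in iPSC. The Stage1 and Stage2 sums were mostly Cd68, with a log2 rise of 1.72 between these groups (edgeR adjusted p = 2.17e-04). Of the 7 macrophage markers, only Cd68 was called higher at Stage2 than at Stage1, 1 (Lyz2) was called lower and 5 were not called. Endothelial markers summed to 9.76 to 17.8 CPM in MEF, 47.1 to 58.7 CPM at Stage1, 90.2 to 118 CPM at Stage2 and 82.99 to 113 CPM in iPSC. Most of it was Pecam1 at Stage1 (41.0 CPM) and Stage2 (83.5 CPM). Of the 6 endothelial markers, 4 were called higher at Stage1 than in MEF, 1 (Emcn) lower, and 1 (Cdh5) was not tested. Epithelial markers summed to 6.89 to 9.29 CPM in MEF, 748 to 769.6 CPM at Stage1, 627 to 694 CPM at Stage2 and 548 to 625 CPM in iPSC. The Stage1 sum was mostly Cdh1 (388 CPM) and Epcam (309 CPM), and the keratins Krt5 and Krt14 were too low to be tested. The part of these cell types in the levels of the members was not tested either.

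Of 11 paralogs of the members, 10 were tested. At Stage1, 7 were called lower than in MEF and 2, Tagln3 and Myl12b, higher, where 36.1% and 44.2% of all genes tested were. At Stage2, 2 were called higher than at Stage1 and 5 lower, where 20.6% and 19.8% of all genes were. In iPSC, 2 were called higher than at Stage2, where 9.21% of all genes were. Families were formed for 8 of the members, all but Cald1 and Srf, and each of the 8 held a smaller share of its family at Stage1 than in MEF. Of the actin counts, Acta2 held 37.3% ± 1.03 in MEF, 0.132% at Stage1, 2.63% ± 1.03 at Stage2 and 0.984% in iPSC (n = 3 each). The cytoplasmic actins Actb and Actg1 held 49.0% and 9.12% in MEF and 60.9% and 38.9% at Stage1. In level Actb nevertheless fell, from 16374 CPM to 1590.3 CPM at Stage1, so that all actins together went from 33265 ± 2871 CPM to 2611 ± 116 CPM. Tagln held 87.2% ± 3.39 of transgelin counts in MEF, 7.01% at Stage1, 32.0% at Stage2 and 15.9% in iPSC, with Tagln2 taking 85.4% at Stage1. Of calponin counts, Cnn1 held 23.2% and Cnn2 43.8% in MEF, and Cnn3, the acidic calponin, held 92.2%, 90.4% and 92.3% in the later groups.

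Among tropomyosins, Tpm1 held 54.5% ± 0.88 of tropomyosin counts in MEF and 20.7% at Stage1, while Tpm3 went from 6.27% to 62.4%. In level Tpm3 averaged 667 CPM in MEF and 652 CPM at Stage1 (log2 difference -0.03 ± 0.14, edgeR adjusted p = 0.836), while Tpm4 fell from 3517 to 173 CPM. Tpm2 held 0.345% at Stage1 and 5.87% in iPSC, with library ranges of 5.41 to 6.31% there and 5.88 to 6.84% in MEF, which overlap. Myl9 held 51.9% of regulatory light chain counts in MEF, 0.437% at Stage1, 5.83% at Stage2 and 2.02% in iPSC. Its partner Myl12b went from 3.38% in MEF to 54.1% at Stage1. The gene spans of Myl12a and Myl12b overlap in GENCODE M21 and the genes are close copies, so the split between those 2 is uncertain. With 3 libraries against 3, an exact two-sided permutation test cannot go below 0.1, so these shares are descriptions.

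**Figure D4:**
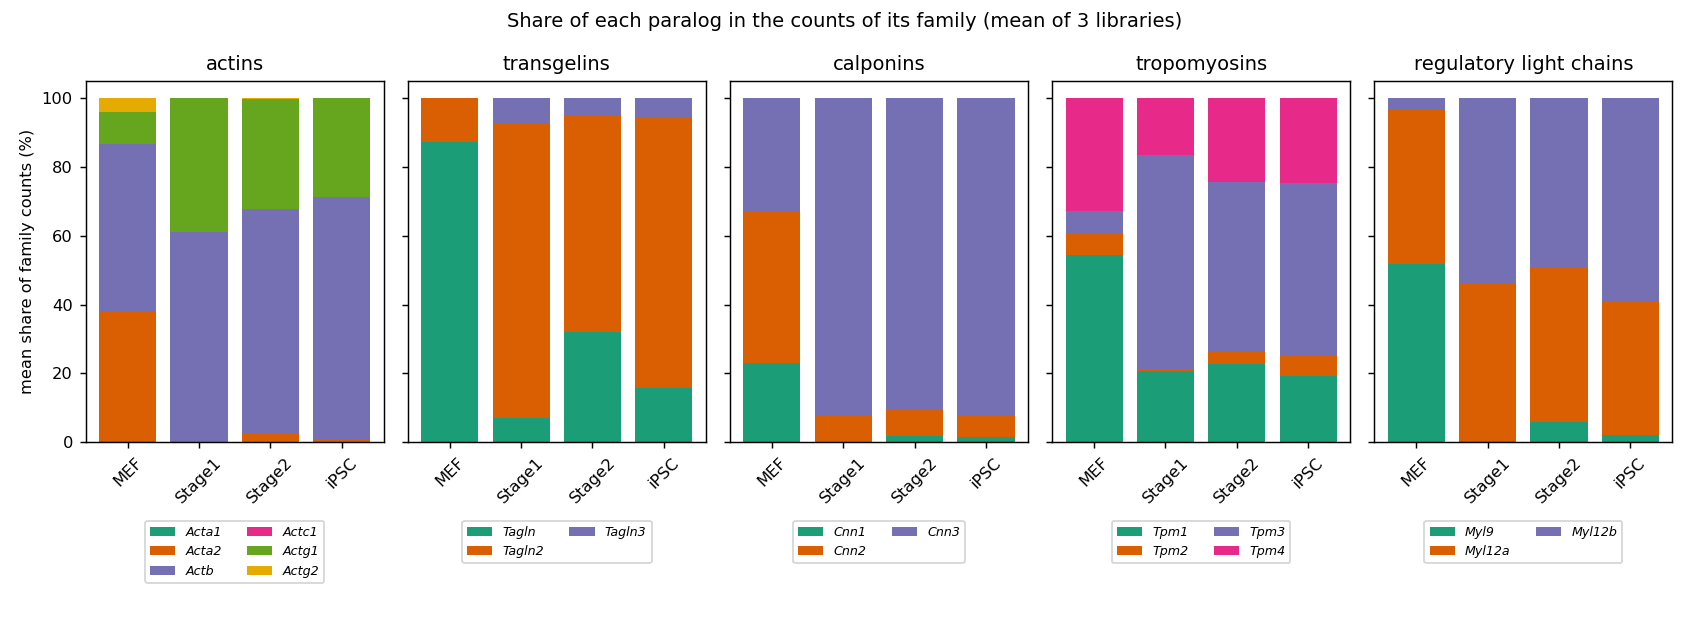
Mean share (percent, 3 libraries per group) of each paralog in the summed counts of its family, for actins, transgelins, calponins, tropomyosins and regulatory light chains. Acta2, Tagln, Cnn1 and Myl9 shrink from 37.3, 87.2, 23.2 and 51.9% in MEF to 0.132, 7.01, 0.155 and 0.437% at Stage1, and Tpm3 grows from 6.27 to 62.4%.

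Other parts of the contractile machinery fell as well, with a smaller median change than the members. Of 22 further contractile and stress fibre genes, 19 were called lower and 3 higher at Stage1 than in MEF, with a median log2 change of -3.22. The shares over all genes tested were 36.1% lower and 44.2% higher. The myosin light chain kinase gene Mylk averaged 187 CPM in MEF and 1.83 at Stage1 (-6.71 ± 0.35, edgeR adjusted p = 1.08e-11). Zyx, which encodes the focal adhesion protein zyxin, went from 469.5 to 5.11 CPM and Vim, the intermediate filament gene vimentin, from 4749.7 to 72.9 CPM. The nonmuscle myosin gene Myh9 retained more, with 1741 CPM in MEF and 447 at Stage1. The 3 called higher were Myh14, Lima1 and Ppp1r12a, the last of which encodes the targeting subunit of myosin phosphatase and averaged 161 CPM in MEF and 256 at Stage1. At Stage2, 9 of the 22 were called higher than at Stage1 and 3 lower, where 20.6% and 19.8% of all genes tested were. In iPSC against Stage2, 2 were called higher and 7 lower, where 9.21% and 8.87% of all genes were. Mylk, Smtn and Actn1 were among the 7.

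Both Mkl cofactors of Srf fell between MEF and Stage1. Mkl1, the actin-sensing cofactor of Srf, was counted at 48.7, 56.2 and 67.2 CPM in MEF and at 4.63, 3.13 and 4.8 CPM at Stage1 (-3.77 ± 0.22, edgeR adjusted p = 4.38e-11), and averaged 3.80 CPM at Stage2 and 3.39 in iPSC. Mkl2, the related cofactor, averaged 48.0 CPM in MEF, 15.3 at Stage1, 24.7 at Stage2 and 12.3 in iPSC, and its rise to Stage2 (0.68 ± 0.18, edgeR adjusted p = 0.00611) and its fall to iPSC (-1.01 ± 0.18, 0.00162) both passed. Mical2, an enzyme that oxidises actin, was counted at 331, 318 and 491 CPM in MEF, at 1.04, 0.895 and 0.842 CPM at Stage1 and at 3.62, 4.58 and 3.88 CPM at Stage2. Its fall of -8.66 ± 0.27 and its rise of 2.11 ± 0.30 both passed (edgeR adjusted p = 1.55e-14 and 2.87e-05). In iPSC it averaged 2.36 CPM and was called lower than at Stage2 (-0.79 ± 0.25, edgeR adjusted p = 0.0377).

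Srf also switches on immediate early genes within minutes of a stimulus. Of 8 such genes, 7 were called lower and 1, the survival gene Mcl1, higher at Stage1 than in MEF. The shares over all genes tested were 36.1% lower and 44.2% higher. Fos averaged 74.5 CPM in MEF, 11.4 at Stage1, 56.5 at Stage2 and 10.7 in iPSC, and its rise to Stage2 (2.28 ± 0.56, edgeR adjusted p = 0.008) and fall to iPSC (-2.40 ± 0.57, 0.0163) passed. Egr1 averaged 119, 19.3, 11.9 and 1.08 CPM in the same order and was called lower at each step, narrowly so at Stage2 (edgeR adjusted p = 0.0395), where no call was made with DESeq2. In all, 3 of the 8 were called higher and 1 lower at Stage2 than at Stage1, where 20.6% and 19.8% of all genes tested were. In iPSC, 1 was called higher and 5 lower than at Stage2, where 9.21% and 8.87% of all genes were.

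Likeness of pattern over the 12 libraries was measured as the root mean square distance between log2 CPM, each gene centred on its own mean, among 11207 genes with a mean of at least 5 CPM in some group. The gene nearest to Acta2 was Bgn, which encodes the matrix proteoglycan biglycan, at 0.33, followed by the collagen gene Col1a2 at 0.468, Tagln at 0.572, Col1a1 at 0.635 and Myl9 at 0.664. For Tagln the nearest gene was also Col1a2 (0.369), for Myl9 the collagen gene Col8a1 (0.439) and for Actg2 Aspn (0.619). For Tpm2 it was Pdgfc (0.389), for Cald1 Sh3kbp1 (0.212), for Cnn2 Tgfbr2 (0.209), for Tpm1 Ilk (0.261) and for Srf Btd (0.11). Members with shallow falls have small distances to many genes, so the distances are not compared between members.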

How the data were processed

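The deposited files hold whole read counts per gene symbol without normalisation. Per the submitters' processing notes, the authors used TopHat2 2.0.9 and Bowtie2 2.2.6 on build mm10, SAMtools 0.1.19, HTSeq 0.5.4p3 for the counts and DESeq2 1.12.4. Strandedness and annotation version are not given in the sources used here. The 5 HTSeq summary lines were left out of library sizes and tests. The line for reads outside genes held 9.21% ± 0.304 of the MEF reads (SD, n = 3), 42.8% ± 4.11 of those of Stage1, 49.9% ± 3.16 of those of Stage2 and 38.8% ± 4.87 of those of iPSC. Genes of structural RNA took 4.62 to 12.9% of gene counts in MEF and 0.952 to 2.29% elsewhere.

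Tests used edgeR 4.0.16 and limma 3.58.1 under R 4.3.3, with the 12 libraries in 1 model. Filtering by group left 14770 genes (804 of 23420 had no count), with TMM factors between libraries. The quasi-likelihood test, in its robust form, gave each of 5 contrasts, with Benjamini-Hochberg adjustment over all genes tested and calls below 0.05. SE is the size of the log2 fold change divided by the root of its F statistic. Levels are TMM-scaled CPM. Levels per kilobase use the union of exons of basic coding transcripts of GENCODE M21. The procedure was tested on simulated data. The main model did not pair libraries by replicate number, because no label says that the number marks a shared origin. In 3 of 18 pairs with the same number the deviations from the group means correlated above 0.1, at most 0.197. Of 12 libraries, 8 correlated best with another of their own number. These values do not settle whether the numbers mark pairs.

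The 10 genes and all lists were chosen with earlier results of these data known. Named genes are the members, genes of the lists, the 5 nearest in pattern to Acta2 and the nearest to each other member, with clone and predicted names left out. Examples within lists were picked with their values in view. The antisense gene overlapping Tagln was likewise named after its overlap was seen. Alternatives were scaling by RLE or library totals, no filter or 1 of at least 1 CPM in 3 libraries, a replicate block, DESeq2 1.42.0, separate fits per comparison, a 2-fold threshold in the test, and omission of structural RNA genes or of each library in turn. The looser promoter match was added after the sequences were seen. Protein sequences were not used here. The counts of 1 gene list and the nearest gene of 1 member are not reported here.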

Additional observations from a re-analysis of the deposited data

How the results depend on the processing

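Over 21 alternatives, 1017 of 1049 values of the 10 genes kept their side of the threshold and, where called, their direction, 32 changed side, and 0 reversed. For both comparisons with MEF, all of them kept it. Scaling by library totals in place of TMM shifted the log2 fold change of the median gene by 0.18 (Stage1 against MEF), 0.20 (Stage2 against Stage1), -0.10 (iPSC against Stage2), 0.10 (iPSC against Stage1) and 0.28 (iPSC against MEF). The share of calls that were higher then went from 51.1% to 70.6% for Stage2 against Stage1 and from 50.9% to 34.1% for iPSC against Stage2. For iPSC against Stage2, all genes called higher and lower numbered 1360 and 1310, against 2307 and 2647 in a fit of only those groups and 19 and 63 with a fold threshold of 2. Leaving out a library gave 665 to 1984 and 568 to 1910. A fold threshold lowers such counts by construction. Fits with fewer libraries gave both more and fewer calls than the main fit, and the cause of this was not tested. Lower calls for Stage2 against Stage1 numbered 1678 with library totals, against 2921.

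Among the members, the 1 lower call for Stage2 against Stage1 (Tpm1) became 0 with RLE scaling (-0.38, edgeR adjusted p = 0.0887), library totals (-0.24, 0.276), no filter (-0.41, 0.0524), DESeq2 (-0.38, 0.0736), without structural RNA genes (-0.41, 0.0525), with a fold threshold of 2 and with the replicate block (-0.44, 0.0546). The replicate block changed no other call of the members. Of 12 libraries, 8 correlated best with another of their own number. This comes from the data and not from the design, and does not settle whether the numbers mark pairs. Cnn2 was called higher at Stage2 with library totals (0.56, edgeR adjusted p = 0.0442). For iPSC against Stage1 the 1 lower call (Tpm1) became 0 with library totals (-0.41, edgeR adjusted p = 0.0648) and with the fold threshold, and 2 in the fit of only those groups, where Srf passed (-0.33, 0.04). With the fold threshold, iPSC against Stage2 kept 1 lower and 0 higher calls, and the Cald1 rises after Stage1 were lost. Leaving out single libraries gave 0 to 1 lower calls for Stage2 against Stage1, 0 to 2 for iPSC against Stage1 and 2 to 4 for iPSC against Stage2.

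The counts of the other gene lists moved mostly with the fold threshold of 2. For the paralogs it left 1 higher for Stage1 against MEF, 0 higher and 0 lower for Stage2 against Stage1, 0 higher for iPSC against Stage2, 0 higher and 0 lower against Stage1 and 1 higher for iPSC against MEF. For the other contractile genes it left 1 higher, then 1 and 0, 0 and 0, 2 and 1, and 1 higher in the same order. For immediate early genes it left 0 higher for Stage1 against MEF, 0 and 0 for Stage2 against Stage1, and 0 and 2 for iPSC against Stage2. Other scalings gave the paralogs 1 (RLE) or 0 (totals) higher for iPSC against Stage2. They gave the contractile list 1 lower (totals) for Stage2 against Stage1, and the contractile list 0 higher (totals) for iPSC against Stage2. The 1 lower immediate early gene at Stage2 became 0 with RLE, totals, no filter or DESeq2. Fits of only the groups compared gave 0 higher immediate early genes for Stage1 against MEF. Leaving out single libraries gave, for Stage2 against Stage1, 1 to 3 higher paralogs and 0 to 1 lower immediate early genes. For iPSC against Stage2 it gave 0 to 2 higher paralogs, 0 to 3 higher and 3 to 10 lower contractile genes and 2 to 5 lower immediate early genes, and for iPSC against Stage1 2 to 4 higher paralogs. Genes with few reads, such as Actg2 and Cnn1 at Stage1, are the least precise in depth.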
